A study of Mus musculus with 18 samples.

Results

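The genes described here are 10 secreted signals of inflammation and myeloid cells: the CC chemokines Ccl2, Ccl5 and Ccl20, the CXC chemokines Cxcl1, Cxcl2, Cxcl5, Cxcl10 and Cxcl16, the macrophage growth factor Csf1 and the cytokine Il6. They were taken from the count table by gene symbol, with the counts of all transcript models of a symbol summed, and make up 10 of its 32699 symbols. All 10 are in the table, and 4 of them (Ccl2, Ccl5, Cxcl10 and Csf1) had enough counts for a test. RNA came from 18 cultures of PyMT-BO1, a mouse breast cancer line described as luminal B-like, on a C57BL/6 background and with integrin β3 knocked out in every group. A retrovirus returned one of 3 inserts to the cells: an empty vector (pMx), a β3 that cannot signal (Δβ3), or functional human β3 (hβ3). Each line grew in 6-well plates and received the solvent DMSO or 10 nM docetaxel, a drug that stabilises microtubules, for 24 h, with 3 cultures per group. With 1 line per construct, spread is known only among cultures of a line, which is what each p-value measures. An effect of a construct cannot be told apart from any other property of its line.

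Chemokines are small proteins that bind G protein-coupled receptors and draw leukocytes along a gradient. Ccl2 draws monocytes through Ccr2, Ccl5 draws T cells and monocytes, and Cxcl10 draws activated T cells through Cxcr3. Ccl20 attracts Ccr6-bearing lymphocytes, Cxcl1, Cxcl2 and Cxcl5 attract neutrophils through Cxcr2, and Cxcl16 is a membrane-bound ligand of Cxcr6 that proteases can release. Csf1 supports survival and growth of macrophages and osteoclast precursors through Csf1r, and Il6 signals through Il6ra and the shared subunit Il6st. Many of these genes are known targets of NF-kB, and Cxcl10 is also a known target of interferon signalling.

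Promoter windows were in the RefSeq table (GRCm38.p6, the assembly of mm10) for 6 of the 10 genes: Ccl20, Csf1, Cxcl1, Cxcl2, Cxcl10 and Il6. The 250 bases before the start are shown for Cxcl10 and Csf1, whose levels moved most below, and for Cxcl1 and Cxcl2, which share a stretch. They lie at chr5:92348890-92349139 (Cxcl10, minus strand), chr3:107760470-107760719 (Csf1, minus strand), chr5:90890995-90891244 (Cxcl1, plus strand) and chr5:90903649-90903898 (Cxcl2, plus strand). Each is written 5′ to 3′ on the gene's strand, and capitals mark the letters that match one of the searched motifs on either strand.
Cxcl10: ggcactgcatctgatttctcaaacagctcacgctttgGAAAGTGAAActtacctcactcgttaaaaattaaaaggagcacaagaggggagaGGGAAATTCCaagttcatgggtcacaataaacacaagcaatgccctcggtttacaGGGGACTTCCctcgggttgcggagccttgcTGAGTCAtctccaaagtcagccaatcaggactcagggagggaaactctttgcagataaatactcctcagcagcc
Csf1: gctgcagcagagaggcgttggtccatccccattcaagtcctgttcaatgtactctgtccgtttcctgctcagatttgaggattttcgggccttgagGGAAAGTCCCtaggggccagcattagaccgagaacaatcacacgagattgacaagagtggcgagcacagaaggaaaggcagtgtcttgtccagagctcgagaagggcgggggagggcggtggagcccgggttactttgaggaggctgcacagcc
Cxcl1: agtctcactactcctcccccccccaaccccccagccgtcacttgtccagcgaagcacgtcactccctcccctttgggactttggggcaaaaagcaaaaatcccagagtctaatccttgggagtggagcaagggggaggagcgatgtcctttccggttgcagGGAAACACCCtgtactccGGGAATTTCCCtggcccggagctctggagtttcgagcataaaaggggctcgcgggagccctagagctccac
Cxcl2: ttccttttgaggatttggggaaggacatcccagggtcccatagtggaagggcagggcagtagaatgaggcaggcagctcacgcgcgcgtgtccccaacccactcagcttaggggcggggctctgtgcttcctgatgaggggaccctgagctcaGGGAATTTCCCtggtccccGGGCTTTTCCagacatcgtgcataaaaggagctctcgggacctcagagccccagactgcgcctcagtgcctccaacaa

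The NF-kB motif, searched as GGG and TTCC with any 3 bases between them, was matched in 6 of the 6 windows, against 5.56% of all 32851 windows of 300 bases in the table. In the lines above these matches are GGGAAATTCC and GGGGACTTCC in Cxcl10, GGAAAGTCCC (the other strand) in Csf1 and GGGAATTTCC in both Cxcl1 and Cxcl2, where it overlaps its own match on the other strand. Cxcl1 also held GGAAACACCC and Cxcl2 also held GGGCTTTTCC. The interferon-stimulated response element, searched as TTTC and TTTC with any 2 bases between, was matched in Cxcl10 alone among the 6 (GAAAGTGAAA, on the other strand), against 3.44% of all windows. The AP-1 motif TGANTCA was matched as TGAGTCA in Cxcl10 and in Il6, against 7.81% of all windows. The STAT motif TTCNNNGAA was matched in none of the 6, against 8.3% of all windows. Many of these genes are known NF-kB targets, so a high share of NF-kB matches could be foreseen and is no test of enrichment. Ccl2, Ccl5, Cxcl5 and Cxcl16 had no window and were not searched. The matches describe the letters in the windows and say nothing of which factor was bound in these cells.

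Library totals in units of 1e6 counts ran from 7.97 to 18.96, with a median of 13.65. Itgb3, the knocked-out gene, had 5 to 20 counts in the pMx libraries and 212 to 1841 in the libraries of the other lines. The 212 counts were in Δβ3 docetaxel culture 2. The hβ3 insert is human and reads were counted on mouse mm10, so these counts do not measure the level of that insert. The luminal keratin gene Krt8 had 4159 to 30563 counts, while Epcam had at most 2 counts and Gata3 had 0 in every library. Δβ3 DMSO culture 1 and Δβ3 docetaxel culture 2 stand apart from the other 16 libraries: summed heart muscle markers reached 5521 and 46080 counts per 1e6 counts (CPM) there, against 177.9 to 2315 elsewhere, and summed leukocyte and macrophage markers 77.8 and 234.3 CPM, against 33.3 to 62.6 elsewhere. Each test below is therefore given with all 18 libraries and, where the call or the value moves, with those 16. Within the 16, the heart muscle sum was highest in pMx docetaxel culture 1 (2315 CPM), pMx DMSO culture 1 (2021) and pMx DMSO culture 2 (1364). The next highest was 721.1 CPM in hβ3 docetaxel culture 3. The fits with 16 libraries still hold these pMx libraries.

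Ccl2, Ccl5 and Cxcl10 were higher after docetaxel, and Csf1 was several-fold higher in the hβ3 line than in the other lines under both treatments. Over the mean response of the 3 lines, 3 of the 4 tested genes rose and none fell at an adjusted p under 0.05 (edgeR quasi-likelihood F-test), where 15.6% of the 12145 tested genes were called, 7.9% as higher. With 16 libraries the same 3 genes were called, and 30.1% of 12356 genes. In bulk RNA such as this, fewer cells of a type and less RNA per cell cannot be told apart. Levels are given in CPM of the scaled library size, changes as log2 fold changes with their standard error (SE), and adjusted p-values by Benjamini-Hochberg over all tested genes.

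**Figure D1:**
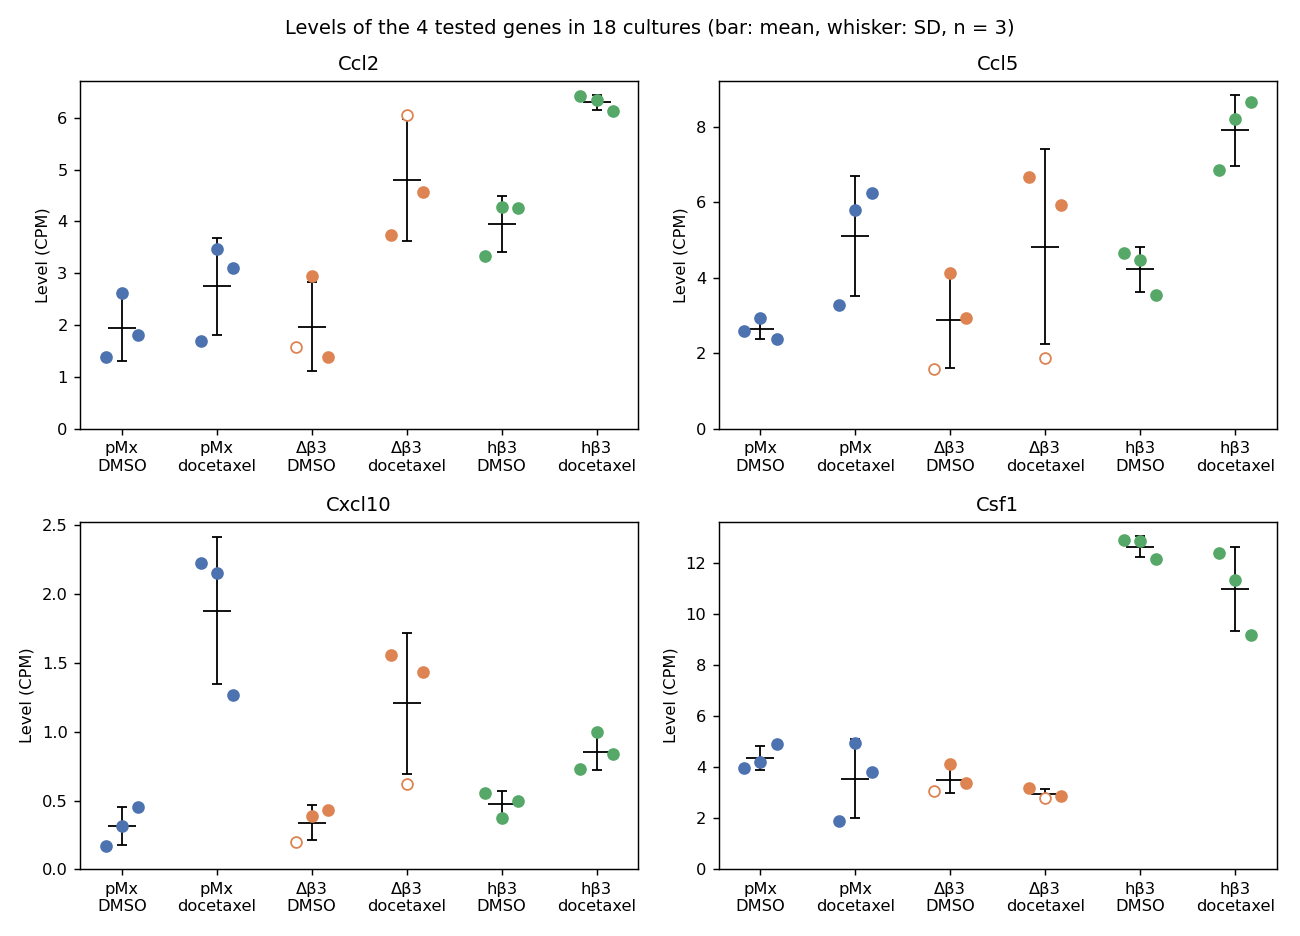
Level in CPM (linear axis from 0) of Ccl2, Ccl5, Cxcl10 and Csf1 in each of the 18 cultures by group. Points are cultures, open points the 2 libraries that stand apart, the bar is the mean of 3 cultures and the whisker the SD. The hβ3 cultures have the highest Csf1 levels under both treatments (9.16 to 12.9 CPM), and pMx docetaxel cultures 1 and 2 have the highest Cxcl10 levels (2.22 and 2.15 CPM).

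Ccl2 (ENSMUSG00000035385.5; mm10 chr11:82035571-82037453, plus strand) had 851 counts in all and was present in every library. In pMx it had 1.38, 2.61 and 1.81 CPM in DMSO and 1.69, 3.46 and 3.09 CPM in docetaxel. In Δβ3 the levels were 1.58, 2.95 and 1.38 CPM in DMSO and 3.74, 6.06 and 4.57 CPM in docetaxel, with the library standing apart at 6.06. In hβ3 the levels were 3.33, 4.28 and 4.26 CPM in DMSO and 6.41, 6.34 and 6.14 CPM in docetaxel. The 2 treatments did not overlap in Δβ3 and in hβ3, and they overlapped in pMx.

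The mean response of Ccl2 to docetaxel was a log2 fold change of 0.81 ± 0.19 (SE; 1.76-fold, adjusted p = 0.00801), and 0.71 with 16 libraries (adjusted p = 0.00252). Within Δβ3 it was 1.26 ± 0.34 (adjusted p = 0.0353 by edgeR), where 6.87% of genes were called, and this call was lost with 16 libraries (0.92, adjusted p = 0.0939) and without the filter on low counts (1.24, adjusted p = 0.065). It was called in 10 of the 18 fits that leave out 1 library, and lost without Δβ3 DMSO culture 1 (adjusted p = 0.0924), Δβ3 DMSO culture 3 (0.104) or Δβ3 docetaxel culture 2 (0.0711). The other losses were adjusted p-values from 0.0524 to 0.055 without pMx DMSO culture 3, pMx docetaxel culture 3 or any hβ3 docetaxel culture. The responses in hβ3 (0.67 ± 0.32, adjusted p = 0.532) and pMx (0.51 ± 0.34, adjusted p = 0.563) did not pass edgeR's test.

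From low to high, the group means of Ccl2 (CPM ± SD, n = 3) were 1.93 ± 0.623 in pMx DMSO, 1.97 ± 0.853 in Δβ3 DMSO, 2.75 ± 0.932 in pMx docetaxel, 3.95 ± 0.544 in hβ3 DMSO, 4.79 ± 1.18 in Δβ3 docetaxel and 6.30 ± 0.143 in hβ3 docetaxel. Each group overlapped the next in this order except the last step, where the lowest hβ3 docetaxel culture (6.14 CPM) lay just above the highest Δβ3 docetaxel culture (6.06 CPM).

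In docetaxel, Ccl2 was 2.27-fold higher in hβ3 than in pMx (log2 1.19 ± 0.33, adjusted p = 0.0328 by edgeR; adjusted p = 0.00183 with 16 libraries). This call was lost in 7 of 18 fits that leave out 1 library: without pMx docetaxel culture 1 (log2 0.94, adjusted p = 0.17), pMx docetaxel culture 3 (0.0809), any hβ3 docetaxel culture (0.0822 to 0.0993), or hβ3 DMSO culture 2 or 3 (0.05 and 0.0514). It was also lost without the filter on low counts (1.19, adjusted p = 0.0588). In DMSO the difference was 1.02 ± 0.33 (adjusted p = 0.0696 by edgeR), and it passed with 16 libraries (0.99, adjusted p = 0.00971), by DESeq2 (1.01, adjusted p = 0.036) and with the replicate number as a block (1.06, adjusted p = 0.0231). Against Δβ3 in DMSO the difference was 0.99 ± 0.34 (adjusted p = 0.0615 by edgeR; 0.0621 with 16 libraries). It passed by DESeq2 (0.96, adjusted p = 0.0442) and with the block (1.04, adjusted p = 0.0215). Against Δβ3 in docetaxel it was 0.41 ± 0.33 (adjusted p = 0.435 by edgeR). With 16 libraries that difference was 0.60 (unadjusted p = 0.0496, adjusted p = 0.17 by edgeR).

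Ccl5 (ENSMUSG00000035042.2; mm10 chr11:83525778-83530518, minus strand) had 1128 counts in all. In pMx it had 2.60, 2.93 and 2.39 CPM in DMSO and 3.28, 5.80 and 6.23 CPM in docetaxel. In Δβ3 it had 1.58, 4.11 and 2.94 CPM in DMSO and 6.67, 1.86 and 5.92 CPM in docetaxel, and the lowest value of each set comes from a library that stands apart. In hβ3 it had 4.64, 4.46 and 3.55 CPM in DMSO and 6.85, 8.19 and 8.66 CPM in docetaxel. Every docetaxel culture lay above every DMSO culture of its line in pMx and hβ3, and also in Δβ3 once those 2 libraries are left out.

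The mean response of Ccl5 was 0.87 ± 0.23 (1.83-fold, adjusted p = 0.0138 by edgeR), and 0.91 with 16 libraries (adjusted p = 1.26e-05). The change was 0.96 ± 0.39 in pMx, 0.76 ± 0.39 in Δβ3 and 0.90 ± 0.39 in hβ3, and none of these passed on its own with 18 libraries (adjusted p = 0.236, 0.228 and 0.419 by edgeR). With 16 libraries all 3 passed, at adjusted p = 0.00279, 0.0485 and 0.00448 (21.3%, 11.3% and 12.5% of all genes called). Leaving out Δβ3 docetaxel culture 2 alone gave adjusted p = 0.0421 in pMx and, with a log2 change of 1.11, 0.0373 in Δβ3.

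In rising order, the group means of Ccl5 (CPM ± SD, n = 3) were 2.64 ± 0.274 for pMx DMSO, 2.88 ± 1.27 in Δβ3 DMSO, 4.22 ± 0.587 in hβ3 DMSO, 4.82 ± 2.59 in Δβ3 docetaxel, 5.10 ± 1.59 in pMx docetaxel and 7.90 ± 0.939 in hβ3 docetaxel. Neighbours overlapped up to pMx docetaxel, and the hβ3 docetaxel cultures lay above all others. The overlap of pMx DMSO with Δβ3 DMSO came only from Δβ3 DMSO culture 1 (1.58 CPM). That of hβ3 DMSO with Δβ3 docetaxel came only from Δβ3 docetaxel culture 2 (1.86 CPM). Both are libraries that stand apart. No difference between lines in Ccl5 passed with 18 libraries. With 16 libraries Ccl5 was higher in hβ3 than in pMx by 0.65 in DMSO (adjusted p = 0.0379 by edgeR) and by 0.59 in docetaxel (adjusted p = 0.0419), where 26.8% and 27.3% of all genes were called.

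Cxcl10 (ENSMUSG00000034855.13; mm10 chr5:92346638-92348889, minus strand), the gene with 2 NF-kB matches, an interferon element match and an AP-1 match in the window printed above, had 197 counts in all and 2 to 27 per library, so its levels are less precise than those of the other tested genes. In pMx it had 0.173, 0.318 and 0.451 CPM in DMSO and 2.22, 2.15 and 1.27 CPM in docetaxel. In Δβ3 it had 0.197, 0.388 and 0.433 CPM in DMSO and 1.56, 0.622 and 1.43 CPM in docetaxel. In hβ3 it had 0.554, 0.372 and 0.497 CPM in DMSO and 0.729, 0.998 and 0.841 CPM in docetaxel. The treatments did not overlap in any of the 3 lines, and the lowest docetaxel value came from Δβ3 docetaxel culture 2.

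The mean response of Cxcl10 was 1.72 ± 0.27 (3.30-fold, adjusted p = 0.000358 by edgeR), and 1.73 with 16 libraries (adjusted p = 2.04e-05). It was called in 18 of the 18 fits that leave out 1 library, as were the mean responses of Ccl2 and Ccl5. In pMx Cxcl10 rose by 2.50 ± 0.47 (5.66-fold, adjusted p = 0.00673), where 3.62% of genes were called, and it was the only member called there. In Δβ3 it rose by 1.83 ± 0.49 (3.54-fold, adjusted p = 0.0335; 0.0237 with 16 libraries). This Δβ3 call was lost in 10 of the 18 fits that leave out 1 library: without Δβ3 DMSO culture 1 (adjusted p = 0.0856), 2 (0.0702) or 3 (0.0513), without Δβ3 docetaxel culture 1 (0.0648) or 3 (0.0595), and at 0.05 to 0.0542 without pMx DMSO culture 2, pMx docetaxel culture 2 or any hβ3 docetaxel culture. With the replicate number as a block it was lost too (adjusted p = 0.0588), and likewise without the filter on low counts (1.81, adjusted p = 0.078).

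In hβ3 the response of Cxcl10 was 0.84 ± 0.46 and did not pass (adjusted p = 0.645 by edgeR; 0.234 with 16 libraries). The difference in response, hβ3 minus pMx, was -1.66 ± 0.66 (95% interval -2.96 to -0.36; unadjusted p = 0.023, adjusted p = 1 by edgeR). With 16 libraries it was -1.61 (adjusted p = 0.202), so a smaller response in hβ3 did not pass the correction. For hβ3 minus Δβ3 it was -0.98 ± 0.67 (adjusted p = 0.638) and for Δβ3 minus pMx -0.68 ± 0.69 (adjusted p = 0.87).

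Group means of Cxcl10 (CPM ± SD, n = 3) ran from 0.314 ± 0.139 in pMx DMSO through 0.339 ± 0.125 in Δβ3 DMSO and 0.474 ± 0.093 in hβ3 DMSO to 0.856 ± 0.135 in hβ3 docetaxel, 1.21 ± 0.509 in Δβ3 docetaxel and 1.88 ± 0.533 in pMx docetaxel. The DMSO groups overlapped one another, the step to hβ3 docetaxel had no overlap, and neighbouring docetaxel groups overlapped. The overlap of hβ3 docetaxel with Δβ3 docetaxel came only from Δβ3 docetaxel culture 2 (0.622 CPM), a library that stands apart. With 16 libraries these groups did not overlap (log2 -0.81, adjusted p = 0.221 by edgeR). In docetaxel Cxcl10 was 2.16-fold lower in hβ3 than in pMx, with no overlap (log2 -1.11 ± 0.44). That difference missed the threshold with 18 libraries (adjusted p = 0.145 by edgeR) and passed with 16 (adjusted p = 0.0352).

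In hβ3 alone, 0 of the 4 tested genes were called for docetaxel by edgeR, where 1.16% of all tested genes were, and 1 of the 4 (Ccl5) had an unadjusted p under 0.05. DESeq2 also called 0 there, with no adjusted p for 1 of the 4. The 3 differences in response between lines also gave 0 called members by edgeR and by DESeq2, which set no adjusted p for 2 of the 4 genes in hβ3 minus pMx and for 3 in hβ3 minus Δβ3. The one unadjusted p under 0.05 among them was that of Cxcl10 for hβ3 minus pMx, and 0.0165%, 0.0412% and 0% of all genes were called for hβ3 minus pMx, hβ3 minus Δβ3 and Δβ3 minus pMx. The 95% interval of the difference in response, hβ3 minus pMx, was -0.76 to 1.09 for Ccl2 and -1.11 to 1.00 for Ccl5.

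The summed level of 11 leukocyte and macrophage markers was 33.3 to 47.4 CPM in DMSO and 49.3 to 62.6 CPM in docetaxel in the 16 libraries. Of these markers 4 had enough counts for a test (Cd14, Cd68, Fcer1g and Lyz2). In the mean response to docetaxel 1 of the 4 rose (Cd68, 1.22, adjusted p = 0.000417 by edgeR), where 15.6% of all genes were called, and with 16 libraries 2 did (30.1% called). These were Cd68 (1.06) and Cd14 (0.42, adjusted p = 0.000214). Cd68, a lysosomal protein abundant in macrophages, ran from 2.63 to 5.08 CPM in DMSO and from 5.82 to 9.59 CPM in docetaxel in those libraries. Lyz2, the lysozyme of myeloid cells, overlapped between the treatments there, at 0.851 to 9.95 CPM in DMSO and 1.09 to 8.995 CPM in docetaxel. Ptprc, the gene of the pan-leukocyte protein CD45, had at most 2 counts in any library, and the macrophage gene Adgre1 had 0 in all 18. Both were also 0 in Δβ3 docetaxel culture 2, which had 1120 counts of Lyz2. Csf1r, the receptor gene of Csf1, had 18 counts in that library and at most 5 in any other. These counts cannot decide whether such cells were present or absent. The part of such cells in the chemokine values was not tested.

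**Figure D2:**
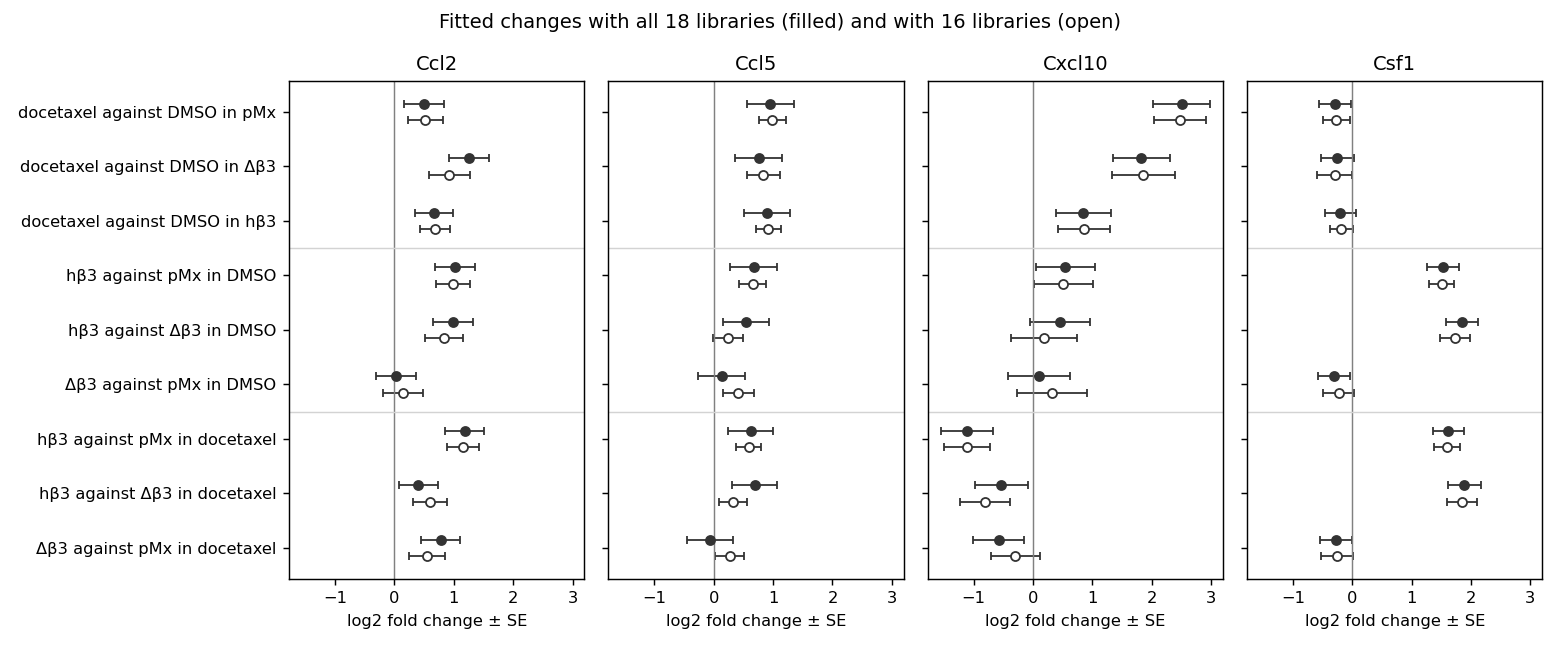
Log2 fold change with its SE (horizontal axis, 0 marked) of the 4 tested genes for docetaxel against DMSO in each line and for each pair of lines in DMSO and in docetaxel. Filled points use all 18 libraries and open points 16. Cxcl10 has its largest change in pMx (2.50), and Csf1 lies at 1.53 to 1.89 in the comparisons of hβ3 with another line and near 0 elsewhere.

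Csf1 (ENSMUSG00000014599.10; mm10 chr3:107741048-107760469, minus strand) had another pattern, with a difference between lines and no called response to docetaxel. It had 1566 counts in all. In pMx it had 3.98, 4.20 and 4.90 CPM in DMSO and 1.90, 4.95 and 3.80 CPM in docetaxel. In Δβ3 it had 3.06, 4.11 and 3.37 CPM in DMSO and 3.18, 2.80 and 2.87 CPM in docetaxel. In hβ3 it had 12.9, 12.8 and 12.1 CPM in DMSO and 12.4, 11.3 and 9.16 CPM in docetaxel. The lowest hβ3 culture lay well above the highest culture of the other lines, at 4.95 CPM. Rn45s, the ribosomal RNA precursor, took 10.9% to 33.0% of the counts in hβ3, 6.59% to 9.81% in pMx and 6.92% to 41.5% in Δβ3. With the counts outside Rn45s as library size, Csf1 had 13.5 to 14.6 CPM in hβ3 DMSO against 4.95 to 6.10 CPM in pMx DMSO, so the gap between these lines was also there on that scale.

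In DMSO Csf1 was 2.89-fold higher in hβ3 than in pMx (log2 1.53 ± 0.26, adjusted p = 0.00103 by edgeR) and 3.58-fold higher than in Δβ3 (1.84 ± 0.27, adjusted p = 0.00017). In docetaxel it was 3.07-fold higher than in pMx (1.62 ± 0.27, adjusted p = 0.000787) and 3.70-fold higher than in Δβ3 (1.89 ± 0.27, adjusted p = 0.000229). All 4 comparisons passed with 16 libraries, with log2 changes of 1.51 and 1.73 in DMSO (26.8% and 23.3% of all genes called) and 1.59 and 1.85 in docetaxel (27.3% and 19.9%), and each was called in 18 of the 18 fits that leave out 1 library. The shares of all genes called in them were 9.02%, 13.1%, 8.46% and 10.1%, in the order given, and Csf1 was the only member called in all 4.

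Between Δβ3 and pMx 0 of the 4 tested genes were called, by edgeR or by DESeq2 (which set no adjusted p for 1 of them), in DMSO (0.0412% of all genes called) or in docetaxel (0.0247%). In DMSO 0 of the 4 had an unadjusted p under 0.05. In docetaxel 1 had, Ccl2, at 0.78 ± 0.33 (unadjusted p = 0.0316, adjusted p = 0.347 by edgeR). With 16 libraries this Ccl2 difference was 0.55 (unadjusted p = 0.0811, adjusted p = 0.583 by edgeR). For Csf1 the difference was -0.31 in DMSO (95% interval -0.83 to 0.21) and -0.27 in docetaxel (-0.80 to 0.26), intervals that lie below the differences seen for hβ3.

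Docetaxel changed Csf1 by -0.25 ± 0.15 in the mean of the lines, which did not pass (adjusted p = 0.316 by edgeR; 95% interval -0.55 to 0.05). Group means of Csf1 in rising order were 2.95 CPM ± 0.204 (SD, n = 3) in Δβ3 docetaxel, 3.52 ± 0.541 in Δβ3 DMSO, 3.55 ± 1.54 in pMx docetaxel, 4.36 ± 0.479 in pMx DMSO, 10.96 ± 1.64 in hβ3 docetaxel and 12.6 ± 0.420 in hβ3 DMSO. Neighbours in this order overlapped except at the step from pMx DMSO to hβ3 docetaxel. The Δβ3 groups overlapped only through Δβ3 DMSO culture 1 (3.06 CPM), a library that stands apart.

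The Csf1 counts came from 2 of its 4 transcript models in the table, 1324 from a model of 2324 bases and 242 from a model of 2387 bases. Alternative splicing of Csf1 is known to give secreted and membrane-bound forms, and which form these models encode was not examined. Both models were higher in hβ3 than in the other lines in DMSO. The model of 2324 bases had 10.8 CPM ± 0.166 (SD, n = 3) in hβ3 DMSO, 3.53 ± 0.206 in pMx DMSO and 2.71 ± 0.267 in Δβ3 DMSO. The model of 2387 bases had 1.94, 1.92 and 1.49 CPM in hβ3 DMSO and 1.09, 1.14 and 0.589 CPM in hβ3 docetaxel, with no overlap between the treatments. Its levels in pMx were 0.260, 0.892 and 1.35 CPM in DMSO and 0.741, 1.12 and 1.13 CPM in docetaxel, which overlap. In Δβ3 they were 0.296, 1.16 and 0.952 CPM in DMSO and 0.312, 0.311 and 0.627 CPM in docetaxel. All hβ3 DMSO cultures thus lay above all pMx and Δβ3 cultures for this model too, while in docetaxel hβ3 overlapped pMx. Counts per model were not tested, and 7 to 31 counts in the hβ3 libraries lie behind the model of 2387 bases.

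**Figure D3:**
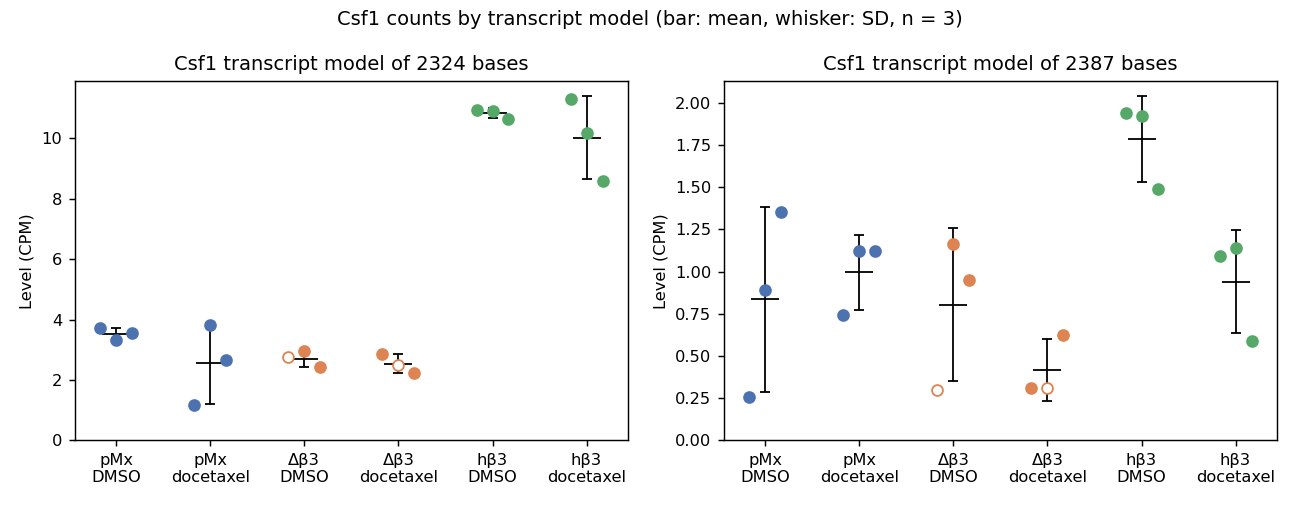
Level in CPM (linear axes from 0, with different scales) of the 2 counted Csf1 transcript models in each culture. Points are cultures, open points the 2 libraries that stand apart, the bar is the mean of 3 cultures and the whisker the SD. The model of 2324 bases has 10.8 CPM on average in hβ3 DMSO against 3.53 in pMx DMSO, and the model of 2387 bases is lower in hβ3 docetaxel than in hβ3 DMSO.

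The other 6 genes had too few counts for the test, with 157 among them in all 18 libraries. Cxcl1 (mm10 chr5:90891241-90893115, plus strand), a neutrophil attractant, had 77 counts, of which 62 were in Δβ3 docetaxel culture 2 (9.63 CPM), a library with 46080 CPM of heart muscle markers. The other 17 libraries held 15 counts of Cxcl1, at most 4 in any of them, and 8 libraries had 0. The part of that library's other transcripts in this value was not tested. Without a filter on low counts Cxcl1 was lower in hβ3 than in Δβ3 in docetaxel (log2 -5.73, adjusted p = 0.0498 by edgeR), a value that rests on this library and where 4.3% of all genes were called.

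Cxcl16 (mm10 chr11:70453983-70459984, minus strand) was counted in 17 of 18 libraries with 67 counts in all and at most 8 in a library, 35 of them in DMSO and 32 in docetaxel. Its 1 library at 0 was Δβ3 docetaxel culture 2. Cxcl5 (mm10 chr5:90759360-90761624, plus strand) had 11 counts in 5 libraries, 2 of them in DMSO and 9 in docetaxel, at most 4 in a library. Il6 (mm10 chr5:30013114-30019981, plus strand) had 2 counts, both in hβ3 docetaxel culture 2. These counts are too few to order the groups.

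Ccl20 (mm10 chr1:83116766-83119167, plus strand) and Cxcl2 (mm10 chr5:90903871-90905938, plus strand) had 0 counts in 237238989, which allows up to 3 counts, or 0.0127 CPM over all libraries, from counting error only. They have 3 and 2 transcript models in the table, and Il6 and Cxcl16 have 4 each. The treatment of reads that fit several models and the strand setting were both not given in the sources used here. Such reads may be missing, so 0 counts do not show that these genes are silent. The levels of Csf1, of its models and of Cxcl10 share this limit, as these genes have 4 and 2 models. Stat3 and Tbk1, from a list described below, also had 0 counts in all. Ccl2, Cxcl10 and Cxcl16 each overlap a gene on the opposite strand (Gm17268, Art3 and Zmynd15). Whether reads of the partners were kept apart by strand is not known. Art3 and Zmynd15 had 38 and 43 counts of their own.

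**Figure D4:**
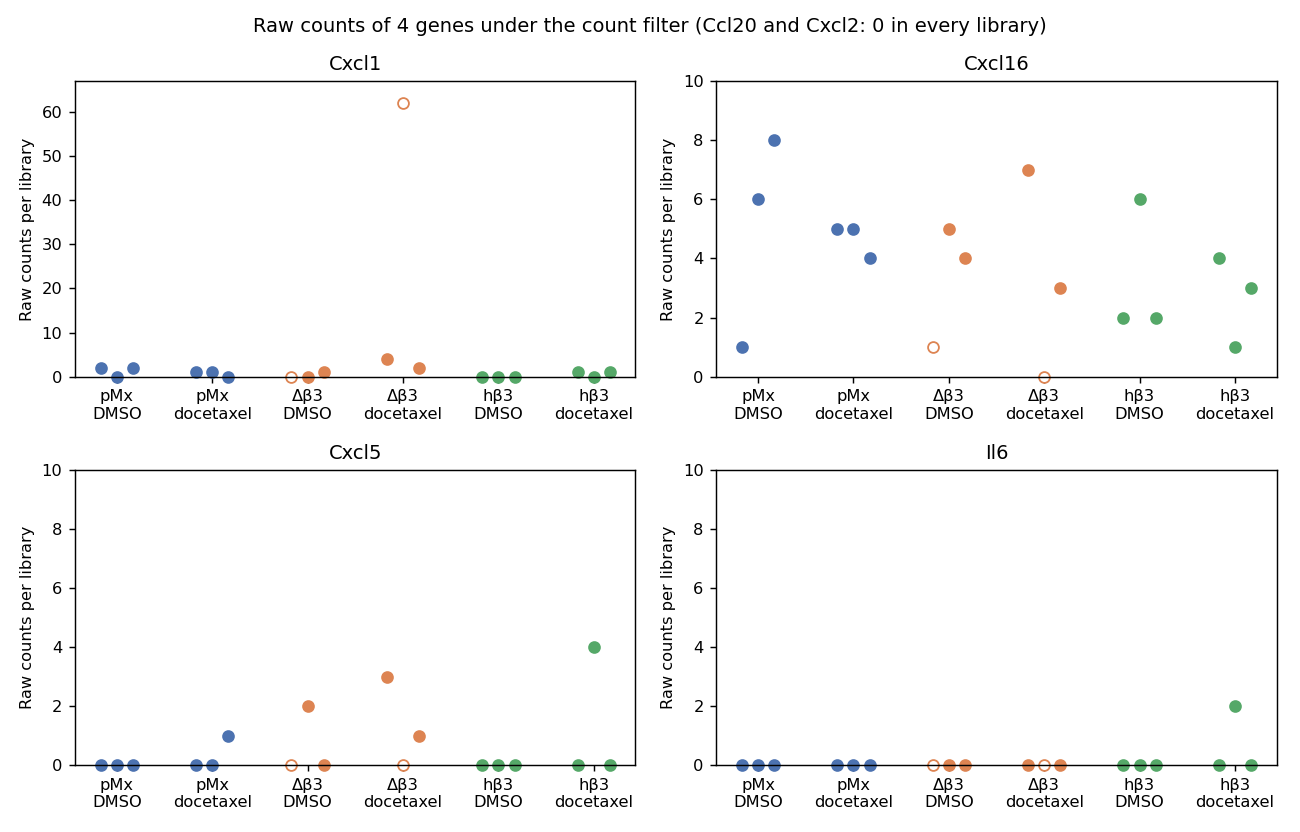
Raw counts per library (linear axes, with different scales) of Cxcl1, Cxcl16, Cxcl5 and Il6 by group. Points are cultures and open points the 2 libraries that stand apart. Cxcl1 reaches 62 counts in Δβ3 docetaxel culture 2 and at most 4 elsewhere, and Cxcl16 does not exceed 8.

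Other genes of the same families were followed from 6 lists. Of 35 other chemokines and colony-stimulating factors, 34 were in the table and 12 were tested. For the mean response to docetaxel 1 of the 12 rose and none fell, a share near that of all tested genes (15.6% called, 7.9% as higher), with a median log2 change of 0.77 against 0.06 over all tested genes. With 16 libraries 2 of 11 tested genes rose and 1 fell (30.1% of all genes called), with a median of 0.12. The gene that rose was Cx3cl1 (fractalkine), a membrane-bound chemokine that draws Cx3cr1-bearing monocytes. Its level in pMx was 27.5 CPM ± 0.656 (SD, n = 3) with DMSO and 43.9 ± 3.85 with docetaxel. In Δβ3 these levels were 29.6 ± 5.93 and 44.6 ± 5.96, and in hβ3 they were 7.31 ± 1.89 and 17.4 ± 0.862. Its mean response was 0.84 ± 0.11 (adjusted p = 5.78e-05 by edgeR). In DMSO Cx3cl1 was lower in hβ3 than in pMx (-1.91 ± 0.19, adjusted p = 4.23e-06), the reverse of Csf1.

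Of 18 other inflammatory cytokines, 11 were tested. In DMSO 4 of the 11 were lower in hβ3 than in pMx and 0 higher (9.02% of all genes called), with a median log2 difference of -1.53 against -0.01 over all genes. With 16 libraries 6 were lower and 2 higher (26.8% called). Il1rn, the interleukin 1 receptor antagonist, was 2.23 CPM ± 0.476 (SD, n = 3) in pMx DMSO and 0.194 ± 0.158 in hβ3 DMSO (log2 -3.43 ± 0.54, adjusted p = 0.00045 by edgeR). Tslp, an epithelial cytokine that acts on dendritic cells, was 22.6 ± 2.85 against 3.58 ± 1.02 CPM (-2.66, adjusted p = 0.00312). Spp1 (osteopontin), a secreted ligand of integrins, was 2.51 ± 0.530 against 0.847 ± 0.076 CPM (-1.56, adjusted p = 0.00473). Over the mean response to docetaxel (15.6% of all genes called) 3 of the 11 rose, among them Il1rn (0.85, adjusted p = 0.0476) and Spp1 (0.78, adjusted p = 0.00699), and 2 fell, among them Mif, the macrophage migration inhibitory factor (-0.44, adjusted p = 0.00938).

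Of 16 receptors of the 10 genes, 2 were tested. Cxcr3, the receptor of Cxcl10, was higher after docetaxel in the mean of the lines (1.11 ± 0.34, adjusted p = 0.0365 by edgeR), at 1.52 CPM ± 0.420 (SD, n = 3) in pMx DMSO and 3.05 ± 1.09 in pMx docetaxel. Il6st, the signalling subunit of the Il6 receptor, had 286.3 CPM ± 13.3 in pMx DMSO and did not pass for the mean response (0.19, adjusted p = 0.15). Its docetaxel response passed in Δβ3 (0.52, adjusted p = 0.048 by edgeR), but not there with 16 libraries (0.19, adjusted p = 0.16). With 16 libraries it passed in pMx (0.22, adjusted p = 0.0216). Il6st was then also higher in hβ3 than in pMx and Δβ3 in DMSO (0.30 and 0.34, adjusted p = 0.00135 and 0.00167).

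Of 20 NF-kB subunits, inhibitors and feedback genes, 14 were tested. In DMSO 4 of the 14 were higher in hβ3 than in pMx and 0 lower (9.02% of all genes called), with a median of 0.60 against -0.01 over all genes, and with 16 libraries 7 were higher and 1 lower (26.8%). In docetaxel 1 of the 14 was higher in hβ3 than in pMx and 0 lower (8.46%), with a median of 0.26, and with 16 libraries 2 were higher (27.3%). Tnfaip3 (A20), a feedback inhibitor, was 5.29 CPM ± 0.508 (SD, n = 3) in hβ3 DMSO and 0.625 ± 0.591 in pMx DMSO (log2 3.12 ± 0.74, adjusted p = 0.0109 by edgeR). The subunit gene Rel was 9.72 ± 1.98 against 4.02 ± 0.509 CPM (1.27, adjusted p = 0.00838), the inhibitor gene Nfkbia 107.6 ± 2.85 against 61.4 ± 2.69 CPM (0.81, adjusted p = 0.000186), and Map3k14 (the kinase NIK) 54.2 ± 1.53 against 27.97 ± 0.841 CPM (0.95, adjusted p = 8.38e-05). For docetaxel 1 of the 14 rose (Nfkbia, 0.24, adjusted p = 0.022) and 1 fell (Map3k14, -0.32, adjusted p = 0.0067) in the mean of the lines (15.6% of all genes called). Within the lines, Nfkbia rose in pMx (0.55 ± 0.12, adjusted p = 0.0135 by edgeR), and the change was 0.32 (adjusted p = 0.0984) in Δβ3 and -0.15 (adjusted p = 0.832) in hβ3. The difference in its response was -0.70 for hβ3 minus pMx and -0.48 for hβ3 minus Δβ3, and neither passed with 18 libraries (adjusted p = 0.427 and 0.541). With 16 libraries both passed (-0.69 and -0.61, adjusted p = 0.000505 and 0.0095), where 2.3% and 0.591% of all genes were called.

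Of 20 interferon sensors and STAT or IRF factors, 11 were tested. In the mean response to docetaxel 3 of the 11 rose and 0 fell (15.6% of all genes called, 7.9% as higher), with a median of 0.63 against 0.06 over all genes. With 16 libraries 5 rose (30.1% called), with a median of 0.39. Ddx58 (the RNA sensor RIG-I) rose by 1.32 ± 0.23 (adjusted p = 0.000723 by edgeR) and Stat2, a subunit of the interferon-activated transcription complex, by 1.12 ± 0.20 (adjusted p = 0.000999). In pMx Stat2 had 2.00 CPM ± 0.902 (SD, n = 3) with DMSO and 6.21 ± 1.41 with docetaxel, and in hβ3 it had 1.99 ± 0.282 and 3.82 ± 0.260.

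Of 9 genes for release of membrane-bound ligands such as Cxcl16 and Csf1, 6 were tested. Timp3, an inhibitor of these proteases, was lower in hβ3 than in pMx in DMSO, at 5.88 CPM ± 0.825 (SD, n = 3) against 22.4 ± 1.15 (log2 -1.93 ± 0.44, adjusted p = 0.0109 by edgeR). In docetaxel it was 7.66 ± 0.570 CPM in hβ3 against 55.1 ± 5.78 in pMx (-2.85, adjusted p = 0.00087). Timp3 and Rhbdf2, a cofactor of the protease Adam17, were the 2 genes that rose in the mean response to docetaxel (1.20 and 1.20, adjusted p = 0.00388 and 0.00684), where 15.6% of all genes were called, and with 16 libraries 4 of the 6 rose (30.1%). For Timp3 and Rhbdf2 the mean responses with 16 libraries were 1.01 and 0.98 (adjusted p = 1.31e-10 and 0.00365 by edgeR).

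The genes whose pattern over the 6 group medians of log2 CPM was closest to each tested gene were looked up among 7264 protein-coding genes, by the root-mean-square (RMS) difference after centring. For Ccl2 they were Tnfrsf11a (RMS 0.21), Ndrg1 (0.23) and Tubb3 (0.23). For Ccl5 they were Dtx4 (0.08), Ercc5 (0.09) and Cdkn1a (0.13), and Dtx4 went from 17.9 to 36.9 CPM with docetaxel in pMx and from 29.8 to 45.2 CPM in hβ3. For Cxcl10 they were Gadd45a (0.20), Stat2 (0.21) and Ifit1 (0.26), and Ifit1 went from 44.6 to 169.4 CPM with docetaxel in pMx and from 38.3 to 95.8 CPM in hβ3. For Csf1 they were Pgbd5 (0.09), Plcxd2 (0.12) and Plcl2 (0.14), and Plcl2 had 46.4 CPM in hβ3 DMSO against 15.6 in pMx DMSO. These likenesses are descriptions over 6 points that share libraries.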

How the data were processed

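RNA was sequenced from 18 cultures in 6 groups of 3. The authors' deposited table holds raw read counts per transcript model on mm10, made with FastQC, HISAT2 and featureCounts per the submitters' processing notes. The notes name no versions; annotation, strand setting and handling of shared reads were also not given in the sources used here. Counts of 63759 models were summed into 32699 symbols. Tests used R 4.3.3 and edgeR 4.0.16: filterByExpr with 6 groups, TMM factors, a coefficient per group and robust two-sided quasi-likelihood F-tests over 13 comparisons, with calls at an adjusted p (Benjamini-Hochberg) under 0.05. The code was tested on simulated data. These held no libraries that stand apart, so that test does not cover the spread of the 18 libraries. Alternatives were RLE factors, no filter, DESeq2 1.42.0, 16 libraries, a replicate block and leaving out each library. A 95% interval is the estimate with its SE under a normal approximation. Coordinates come from GENCODE M21. The 10 genes and the lists were chosen with earlier results of these data known. From each list up to 4 called genes with the smallest p were named, and for likeness the 3 nearest genes with at least 2 CPM, using a prior count of 2 for log2 CPM.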

Additional observations from a re-analysis of the deposited data

How the results depend on the processing

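The main counts of called members for docetaxel were 1 in pMx (3.62% of all genes called), 2 in Δβ3 (6.87%), 0 in hβ3 (1.16%) and 3 in the mean (15.6%). For hβ3 in DMSO they were 1 against pMx (9.02%) and 1 against Δβ3 (13.1%). For hβ3 in docetaxel they were 2 against pMx (8.46%) and 1 against Δβ3 (10.1%). RLE factors changed none of the 13 counts. With 16 libraries they were 2 for docetaxel in pMx (21.3% of all genes called) and 1 in hβ3 (12.5%). For hβ3 against pMx with 16 libraries they were 3 in DMSO (26.8%) and 4 in docetaxel (3 higher and 1 lower, 27.3%). DESeq2 gave 0 for docetaxel in pMx, where it set no adjusted p for Cxcl10, and 2 for hβ3 against pMx and against Δβ3 in DMSO. Without the filter on low counts they were 0 for docetaxel in Δβ3 and 1 for hβ3 against pMx in docetaxel. For hβ3 against Δβ3 in docetaxel they were 2 without that filter (4.3% of all genes called). Shares of all genes called are not given for DESeq2 or for the other counts without that filter. Nor are they given for the replicate block and for leaving out 1 library, below. Changes in those counts therefore cannot be set against a change over all genes. The causes were not tested.

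With the replicate number as a block, the counts were 1 for docetaxel in Δβ3 and 2 for hβ3 against pMx and against Δβ3 in DMSO, where Ccl2 passed; the block changed no other count. The labels do not say that a number marks a shared batch. Of 45 same-numbered pairs, 18 had deviations from their group means correlated over 0.1 (range -0.53 to 0.46, median 0.049). Some of these pairs hold the 2 libraries that stand apart, so the correlations cannot decide whether a number marks a batch. The best match of a library in another group carried its own number in 35 of 90 cases.

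Leaving out 1 library gave 1 to 2 for docetaxel in pMx, 0 to 2 in Δβ3, and 1 to 2 for hβ3 against pMx in DMSO, against Δβ3 in DMSO and against pMx in docetaxel. Values that changed sign were all uncalled: with 16 libraries Ccl5 for Δβ3 against pMx in docetaxel (0.27) and Csf1 for the response difference Δβ3 minus pMx (-0.028). Over the fits without 1 library, Δβ3 against pMx in DMSO ran from -0.40 to 0.30 for Ccl2, -0.22 to 0.41 for Ccl5 and -0.16 to 0.43 for Cxcl10, and in docetaxel from -0.37 to 0.29 for Ccl5 and -0.56 to 0.027 for Csf1. The response difference hβ3 minus pMx ran from -0.11 to 0.35 (Ccl2), -0.29 to 0.12 (Ccl5) and -0.20 to 0.39 (Csf1), hβ3 minus Δβ3 from -0.21 to 0.45 (Ccl5) and -0.082 to 0.16 (Csf1), and Δβ3 minus pMx from -0.50 to 0.15 (Ccl5) and -0.25 to 0.34 (Csf1). With counts outside Rn45s as library size, 9 of 24 group levels moved by over 1 SD. Depth limits Cxcl10 most among the tested genes, at 2 to 27 counts per library.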
